A study of Mus musculus with 28 samples.

Results

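Ribosome-bound RNA pulled from parvalbumin (PV) interneurons of the mouse hippocampus was compared with the RNA of the whole tissue it came from. The comparison rests on 8 of the 28 libraries of the series, chosen by their labels as the PBS groups of the PV line: 4 anti-HA immunoprecipitates (IP) and 4 inputs. All 8 came from C57BL/6 mice of 3 to 4 weeks with the genotype PV-Cre/+; LSL-Rpl22-HA/+, in which Cre in PV cells switches on 1 allele of the ribosomal protein Rpl22 with an HA tag. CA1 tissue was taken 6 h after an intraperitoneal injection of PBS, the vehicle of the kainic acid groups, and 9 to 10 mice were pooled for each replicate. Each IP used 12 µg of antibody, and the input is a portion of the lysate set aside before the IP. The deposited columns give these groups the time 0 h, and the word Strd in their names is not explained in the labels. Groups of the same line after kainic acid (4 IP and 4 input) and of the genotype CaMK2a-Cre/+; LSL-Rpl22-HA/+ after PBS (3 IP and 3 input, 4 mice pooled for each), in which excitatory neurons carry the tag, were used for comparison only.

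PV interneurons are inhibitory cells that release GABA onto the cell bodies and axon start of pyramidal neurons. They fire fast, with brief action potentials carried by Kv3 potassium channels, and release transmitter with fast calcium sensors such as synaptotagmin 2. They are a small part of the cells of CA1, where pyramidal neurons prevail. In a RiboTag experiment a transcript bound to tagged ribosomes is enriched in the IP over the input, and a transcript of cells without the tag is depleted, with some carried over.

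Between 12.1 and 13.5 M reads were counted in genes in each IP library (12.6 ± 0.616 M, SD, n = 4) and between 8.89 and 11.1 M in each input (9.65 ± 1.04 M). Levels are given in CPM, the counts of a gene relative to the library total scaled with TMM factors, and differences as the log2 fold change of IP over input with its standard error (SE). Genes with a Benjamini-Hochberg adjusted p under 0.05 in the edgeR quasi-likelihood test were called. Replicate 4 stood apart from the other replicates in both fractions. Mitochondrially encoded genes took 0.795% of the counts in IP replicate 4 and 1.90 to 2.01% in the other IP libraries, and 4.10% in input replicate 4 against 7.99 to 9.67% in the other inputs. Counts over all genes are therefore also given from replicates 1 to 3, as are those of gene lists where they differ by more than 1 gene.

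Markers of the labelled cell type were read first: Pvalb, the calcium-binding protein that names these cells, Syt2, and Akr1c18, a steroid-metabolising aldo-keto reductase. They were chosen with earlier results of these data known, so their enrichment is no independent check of the label. Pvalb had 122, 179, 137 and 182 CPM in IP replicates 1 to 4, and 10.1, 6.41, 9.51 and 21.05 CPM in the inputs. Every IP library was above every input, and the difference was 3.71 ± 0.32 (adjusted p 2.8e-06), a 13.04-fold enrichment. Syt2 had 584, 761, 694 and 575 CPM in the IP libraries and 35.9, 45.1, 31.1 and 45.6 CPM in the inputs, a difference of 4.05 ± 0.18 (adjusted p 1.3e-08). Akr1c18 had 75.9, 86.5, 59.7 and 53.8 CPM in the IP libraries and 5.03, 3.89, 3.17 and 1.93 CPM in the inputs, a difference of 4.31 ± 0.30 (adjusted p 4.1e-07). The groups did not overlap for any of the 3 genes. Per kilobase of the listed length, the authors' deposited values placed Pvalb at 37.5 ± 9.35 RPKM in the IP (SD, n = 4) and Syt2 and Akr1c18 below it, at 22.8 ± 2.35 and 16.2 ± 2.86 RPKM. In the input the order per length was Pvalb at 3.16 ± 1.99, Syt2 at 1.51 ± 0.343 and Akr1c18 at 0.889 ± 0.296 RPKM. Rpl22 itself, the tagged gene, is not among the genes listed for both fractions and was not analysed here.

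The sequence upstream of the first RefSeq start listed for each of these 3 genes is shown because they are the labelled cell type's own markers and were enriched together. It is given 5′ to 3′ on the gene's strand (GRCm38.p6). Capitals mark matches, on either strand, to the GC box GGGCGG and to the nuclear receptor half-site AAGGTCA, and the TATA box TATAAA was searched too. The Syt2 stretch stops at 202 bases, where the gene span in the deposited tables begins.
Pvalb, chr15:78206401-78206650, minus strand: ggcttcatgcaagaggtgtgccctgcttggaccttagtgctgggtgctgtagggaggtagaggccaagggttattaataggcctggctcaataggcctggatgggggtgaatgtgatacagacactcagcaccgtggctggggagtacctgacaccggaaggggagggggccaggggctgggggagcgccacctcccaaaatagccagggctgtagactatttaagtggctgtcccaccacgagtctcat
Syt2, chr1:134646362-134646563, plus strand: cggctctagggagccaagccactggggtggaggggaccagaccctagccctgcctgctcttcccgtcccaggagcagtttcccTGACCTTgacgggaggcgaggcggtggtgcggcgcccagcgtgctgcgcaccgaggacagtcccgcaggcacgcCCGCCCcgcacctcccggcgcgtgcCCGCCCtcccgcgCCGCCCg
Akr1c18, chr13:4150647-4150896, minus strand: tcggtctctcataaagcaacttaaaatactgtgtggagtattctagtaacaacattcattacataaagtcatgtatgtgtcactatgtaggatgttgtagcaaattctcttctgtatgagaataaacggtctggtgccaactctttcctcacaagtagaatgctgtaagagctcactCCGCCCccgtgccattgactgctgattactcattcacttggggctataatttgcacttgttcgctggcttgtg
The Pvalb stretch holds no match to any of the 3 motifs. That of Syt2 holds 3 GC boxes and 1 half-site, and that of Akr1c18 holds 1 GC box. Over the first listed 250 bases of 27025 genes, 32.94% held a GC box, 4.05% a half-site and 12.97% a TATA box. Of the 8 PV marker genes with such a stretch, 6 held a GC box, 1 a half-site (Syt2) and 0 a TATA box.

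Both fractions list 13428 genes, and 11204 of these had enough counts to be tested. Of these 1183 (10.6%) were higher in the IP and 894 (7.98%) were lower, and the median log2 fold change over all of them was 0.02. Changes of at least 2-fold were found for 643 of the higher and 384 of the lower genes, and of at least 4-fold for 178 and 50. All 4 IP values lay above all 4 inputs for 1402 genes (12.5%) and below them for 1203 (10.7%). With the replicate number, taken to mark the lysate pool, as a block 1771 genes were higher and 1599 lower. With replicates 1 to 3 only, 1431 of 11107 genes were higher and 1168 lower. Without input replicate 2 the genes lower numbered 581.

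**Figure D1:**
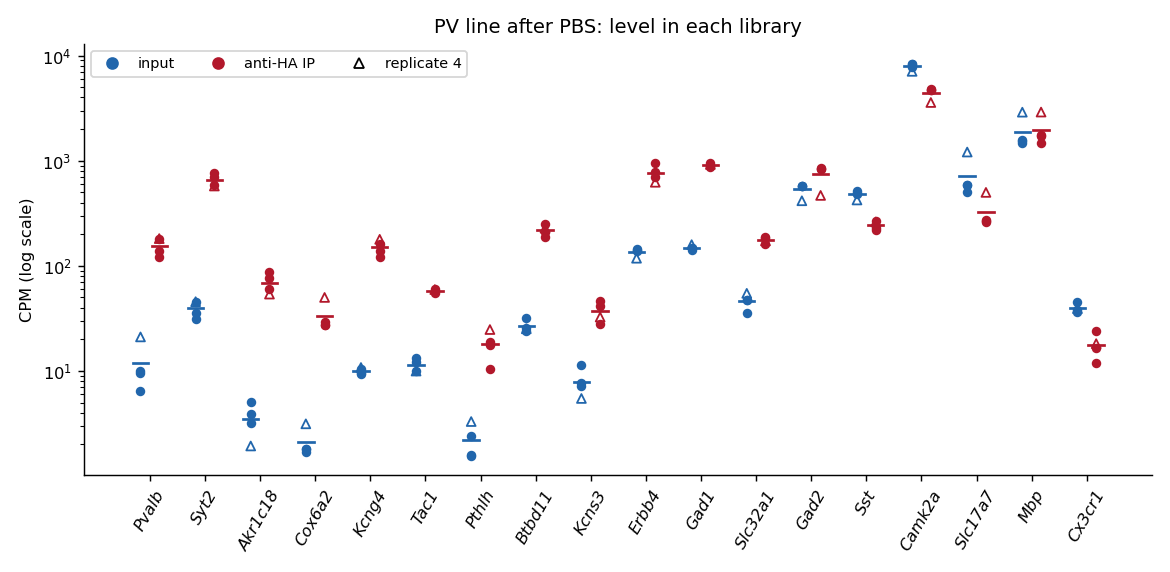
CPM of 18 genes (log axis) in each PBS library of the PV line: input in blue, anti-HA IP in red, replicate 4 as open triangles, mean of the 4 libraries as a line. Genes from Pvalb to Slc32a1 show IP values wholly above the inputs, while Gad2 and Mbp overlap and Sst, Camk2a, Slc17a7 and Cx3cr1 lie lower in the IP.

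Among markers of PV interneurons, 9 of the 10 tested rose, beside 10.6% of all tested genes, and 1 did not pass. The list includes Pvalb, Syt2 and Akr1c18 and was chosen with earlier results of these data known, so the count is descriptive. The median over the 10 was 3.02, beside 0.02 over all tested genes. Summed, the 10 genes made up 1802 to 2371 CPM of the IP libraries and 237 to 256 CPM of the inputs. Ank1 and Ppargc1a, the other listed markers, are not in the joined table. Cox6a2, a subunit of cytochrome c oxidase otherwise known from muscle, had 27.3, 29.4, 27.4 and 50.01 CPM in the IP libraries against 1.79, 1.68, 1.81 and 3.13 CPM in the inputs, a difference of 3.97 ± 0.34. Replicate 4 was highest in both fractions. Btbd11, a protein of synapses on inhibitory neurons, had 187, 249, 210 and 228 CPM in the IP libraries against 24.1 to 31.8 CPM in the inputs (3.03 ± 0.17). The parathyroid hormone-like peptide gene Pthlh rose by 3.00 ± 0.39, from 2.22 ± 0.821 to 17.9 ± 5.91 CPM. The neuregulin receptor gene Erbb4 rose by 2.49 ± 0.16, and Tac1, which encodes substance P, by 2.36 ± 0.19, from 11.4 ± 1.69 to 58.2 ± 2.15 CPM. Kcns3, a modifying subunit of Kv2 channels, rose by 2.24 ± 0.28. Nog, the bone morphogenetic protein antagonist noggin, was low in every library (1.13 to 7.49 CPM), and its value of 1.13 ± 0.56 did not pass (adjusted p 0.19). In the level of a gene within a bulk RNA library, the number of cells of a type and the RNA per cell cannot be told apart.

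Of 7 tested genes that make, load, take up or degrade GABA, 5 rose and 1 fell, beside 10.6% higher and 7.98% lower among all tested genes, with a median of 0.85. Gad1, which makes GABA, had 871, 951, 889 and 922 CPM in the IP libraries and 143, 147, 148 and 159 CPM in the inputs. The groups were far apart, and the difference was 2.60 ± 0.13 (adjusted p 2.3e-08), a 6.08-fold enrichment. Gad2, the other GABA-synthesising enzyme, had 836, 856 and 842 CPM in IP replicates 1 to 3 but 468 CPM in replicate 4, against inputs of 575, 575, 571 and 416 CPM. IP replicate 4 was below 3 of the 4 inputs but above the input of the same number. The Gad2 value of 0.49 ± 0.19 did not pass (adjusted p 0.096), while with the pool as a block it did (0.46, adjusted p 5.0e-04), as it did with replicates 1 to 3 only (0.55, adjusted p 1.1e-04). The vesicular GABA transporter gene Slc32a1 rose by 1.93 ± 0.16, from 46.2 ± 7.82 to 176 ± 12.8 CPM. The GABA-degrading enzymes Abat and Aldh5a1 rose by 0.85 ± 0.15 and 0.83 ± 0.17. Slc6a11, the GABA transporter of astrocytes, fell by 1.24 on the log2 scale (SE 0.25).

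Of 16 tested transcription factors of interneurons, 10 rose and 2 fell (median 1.56), beside 10.6% and 7.98% of all tested genes. With replicates 1 to 3 only, 12 rose and 2 fell, beside 1431 and 1168 of 11107 genes tested. Lhx6 and Npas1 are not in the joined table. Dlx6, a homeobox factor of the ganglionic eminences, had the largest change and the widest spread, with 11.7, 23.2, 2.89 and 6.81 CPM in the IP libraries and 0.321 to 1.23 CPM in the inputs (3.63 ± 0.66). Sp9, a zinc finger factor of the same progenitors, rose by 2.65 ± 0.23, from 6.11 ± 0.645 to 38.4 ± 6.17 CPM. Dlx5 (2.10), Maf (1.70), Mef2c (1.65), Dlx1 (1.53), Sox6 (1.29) and Satb1 (1.17) also rose. The 2 that fell were Nr2f2 (−1.05) and Etv1 (−0.61), of which Nr2f2 marks interneurons of the caudal ganglionic eminence, an origin other than that of PV cells. Without input replicate 1, 2 or 3 only 1 of the 16 was lower.

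Ion channels associated with fast spiking were enriched for 12 of 17 tested members (median 0.91), beside 10.6% of all tested genes. With replicates 1 to 3 only, 14 of the 17 were, beside 1431 of 11107 genes tested. The Kv3 genes of the list had unequal values. Kcnc1 (Kv3.1) had 871, 1105, 940 and 950 CPM in the IP libraries against 251, 238, 213 and 244 CPM in the inputs, a difference of 2.03 ± 0.13. Kcnc2 (Kv3.2) had 464, 535, 482 and 435 CPM against 122 to 140 CPM, a difference of 1.88 ± 0.13. Kcnc4 (Kv3.4) was lower in the IP, at 24.9 ± 7.15 against 41.7 ± 11.2 CPM, and did not pass (−0.74 ± 0.25, adjusted p 0.054). With the pool as a block Kcnc4 passed as lower (adjusted p 0.011), as it did without IP replicate 1 (adjusted p 0.020), under relative log expression and upper-quartile factors and by DESeq2. Kcnab3, a beta subunit of Kv1 channels, had the largest difference of the list at 2.76 ± 0.18, from 27.2 ± 3.91 to 184 ± 30.9 CPM, while the related Kcnab2 had 0.19 ± 0.19 (adjusted p 0.52). The Kv1 genes Kcna2 and Kcna1 rose by 1.29 ± 0.15 and 0.91 ± 0.14, and Kcna6 had 0.25 ± 0.16 (adjusted p 0.31). Among sodium channels, Scn1a (Nav1.1) rose by 1.51 ± 0.14, from 181 ± 18.3 to 515 ± 49.3 CPM, and the beta subunit gene Scn4b by 1.44 ± 0.30. Scn8a (Nav1.6) had 0.53 ± 0.20 (adjusted p 0.077) and passed with the pool as a block (adjusted p 8.4e-05). The smallest changes called were those of Kcnab1 (0.45, adjusted p 0.047) and Scn2b (0.38, adjusted p 0.049). Each of these 2 calls ended under upper-quartile factors (adjusted p 0.091 and 0.095), under relative log expression factors, without the filter on low counts, in the fit to all 4 PV groups, and when input replicate 1, 2 or 3 or IP replicate 1 or 3 was left out. That of Kcnab1 ended also without IP or input replicate 4, and that of Scn2b without IP replicate 2.

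Of 28 tested genes of the transmitter release machinery, 9 were higher and 4 lower, beside 10.6% and 7.98% of all tested genes, with a median of 0.18. Blocking on the pool gave 14 higher and 4 lower, beside 1771 and 1599 of all 11204 genes tested. Replicates 1 to 3 only gave 13 and 4, beside 1431 and 1168 of 11107 genes. Vamp1, a vesicle SNARE, had 497, 576, 433 and 521 CPM in the IP libraries and 73.9, 91.2, 79.8 and 83.6 CPM in the inputs (2.62 ± 0.15). Its paralog Vamp2 had −0.05 and did not pass. Cplx1, a complexin that clamps and triggers fusion, rose by 1.86 ± 0.14, from 531 ± 52.6 to 1935 ± 259 CPM, while Cplx2 fell (−0.77). Syt2 rose, as above, and Syt1, the calcium sensor of most forebrain synapses, had 0.17 and did not pass. Rab3b rose by 1.64 ± 0.21, and the P/Q-type calcium channel gene Cacna1a by 0.76. Among the vesicle proteins Sv2b (−1.24) and Sv2c (−1.08) fell, and Sv2a had 0.28 without passing. Without input replicate 1, 2 members rather than 4 were lower.

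Of 19 tested receptors and junction proteins known from PV cells, 10 were higher and 1 lower, beside 10.6% and 7.98% of all tested genes. The median of the 19 was 0.59. With the pool as a block, or with replicates 1 to 3 only, 3 were lower, beside 1599 of 11204 and 1168 of 11107 genes tested. Oprd1, the delta opioid receptor, had 145, 169, 175 and 145 CPM in the IP libraries and 19.0, 12.9, 21.7 and 23.1 CPM in the inputs (3.04 ± 0.20). Oprm1, the mu opioid receptor, rose by 1.80. Gjd2, the connexin of electrical synapses between interneurons, rose by 2.93 ± 0.33, from 6.24 ± 3.08 to 47.3 ± 7.61 CPM. Cntnap4, a cell adhesion protein of interneuron synapses, rose by 2.76 ± 0.22, and Chrm2, a muscarinic acetylcholine receptor, by 2.57 ± 0.23. The GABA-A receptor gene Gabrd (1.85) rose, as did the NMDA receptor gene Grin2d (1.30). Cntnap4, Chrm2, Gjd2, Kcnab3, Rab3b, Slc32a1, Sp9, Dlx6 and Cox6a2 overlap, within exons, genes of the other strand. So do other named genes, 30 of 126 in total, among them Sptbn1, Dst, Aldh5a1, Penk, Kcna6, Kcnab1, Cx3cr1, Csf1r, Cnp, Pdgfra, Abcc9 and Dsp. The counting is not stated to use strand, so reads of the partners cannot be told apart.

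Of the perineuronal net, the matrix coat of PV cells, 3 of 11 tested genes were higher and 3 lower (median −0.14), beside 10.6% and 7.98% of all tested genes. With the pool as a block 5 were lower, beside 1599 of all 11204 genes tested. The link protein genes Hapln4 and Hapln1 rose by 1.30 ± 0.14 and 1.05. Acan, the proteoglycan aggrecan, had 6.79, 10.5, 14.3 and 6.43 CPM in the IP libraries against 3.24, 3.99, 5.10 and 2.89 CPM in the inputs (1.32 ± 0.40, adjusted p 0.035). That call ended when any library other than IP replicate 1 or IP replicate 4 was left out (adjusted p 0.051 to 0.10). Among proteoglycans that glia also make, Ptprz1 fell by 1.82 on the log2 scale (SE 0.15), Vcan by 1.06 (SE 0.23) and Ncan by 0.64. Bcan, another proteoglycan of the list, did not pass.

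The largest enrichment among named genes was that of Sptan1, alpha-II spectrin, part of the skeleton under the membrane. It had 24308, 22290, 21625 and 10230 CPM in the IP libraries and 522, 604, 596 and 630 CPM in the inputs. Its lowest IP library was replicate 4, and its difference was 5.06 ± 0.25 (adjusted p 2.5e-08), a 33.3-fold enrichment. Sptan1 was the gene with the most counts in IP replicates 1 to 3, and Map1a, a microtubule-associated protein, in IP replicate 4. The beta spectrins Sptbn1, Sptb and Sptbn4 rose by 4.00 ± 0.18, 2.85 and 2.05. Of 18 tested genes of spectrins, ankyrins, neurofilaments and microtubule binders, 13 rose and 1, Map2, fell (−0.72), with a median of 2.33. Among all tested genes 10.6% rose and 7.98% fell. Together the 18 genes made up 55077 to 73002 CPM in the IP and 11423 to 16409 CPM in the input. The giant crosslinkers Dst and Macf1 rose by 3.20 ± 0.22 and 2.75, and Map1a by 2.98. Neurofilament genes were unequal, with Nefh at 2.77, Nefm at 1.38 and Nefl at 0.24, the last not passing.

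By the rule for size, 12 genes led the enrichment: Sptan1, Mmp2, Ppp1r9a, Mpdz, Mmp9, Limch1, Akr1c18, Actn2, Syt2, Sptbn1, Cox6a2 and Kcng4. Ppp1r9a, the actin-binding neurabin, had 8062, 11678, 11993 and 5244 CPM in the IP libraries and 210 to 384 CPM in the inputs (4.91 ± 0.29). Limch1, an actomyosin regulator, rose by 4.33 ± 0.27 and Actn2, an actin crosslinker, by 4.17 ± 0.34. Mpdz, a protein of many PDZ domains, rose by 4.49 ± 0.19, from 48.6 ± 6.77 to 1094 ± 193 CPM. The matrix metalloproteinase genes Mmp2 and Mmp9 rose from 2.03 ± 0.611 to 64.6 ± 36.3 CPM and from 1.34 ± 1.21 to 28.5 ± 14.2 CPM. Replicate 4 was the highest IP library for both, whereas it was the lowest for Sptan1, Ppp1r9a and Limch1. Kcng4, a modifying subunit of Kv2 channels, had 162, 137, 122 and 179 CPM in the IP libraries and 9.28 to 10.8 CPM in the inputs (3.90 ± 0.19).

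**Figure D2:**
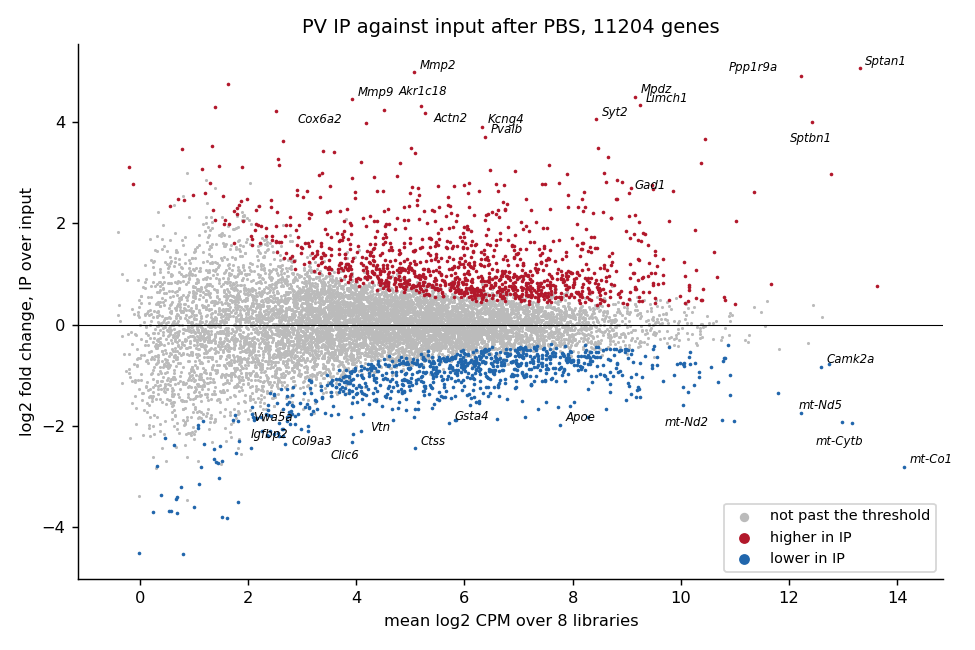
Log2 fold change of IP over input against mean log2 CPM for 11204 genes, with genes past the adjusted p threshold in red (1183 higher) and blue (894 lower). Sptan1 (5.06) and Ppp1r9a (4.91) combine a large enrichment with a high level, and mt-Co1 (−2.80) has the highest level of the named genes that fell.

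Of 15 tested markers of other interneuron classes 6 fell and 9 did not pass (median −0.83), beside 7.98% lower among all tested genes. Sst, the somatostatin of dendrite-targeting interneurons, had 267, 229, 220 and 262 CPM in the IP libraries and 497, 512, 485 and 423 CPM in the inputs (−0.97 ± 0.13, adjusted p 1.8e-04). The groups did not overlap. Cck, a peptide of basket cells without PV and of some pyramidal cells, fell by 1.02 on the log2 scale (SE 0.13), and Penk, which encodes enkephalin, by 1.30 (SE 0.26). Cnr1 (−0.83) and Reln (−0.87) fell too. Ndnf, a marker of neurogliaform cells, had 28.3 CPM in IP replicate 3 against 9.02 to 10.2 in the other IP libraries (−1.31 ± 0.36, adjusted p 0.020), and its call ended without any 1 of 5 libraries, IP replicates 1 and 2 and input replicates 1 to 3 (adjusted p 0.051 to 0.066). Vip (0.25), Npy (−0.09) and Pnoc (0.66) did not pass.

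Of 17 tested CA1 pyramidal markers, 13 fell (median −0.83), beside 7.98% of all tested genes. Camk2a, the kinase of excitatory neurons, had 4694, 4788, 4721 and 3585 CPM in the IP libraries and 8339, 8411, 7750 and 7095 CPM in the inputs (−0.83 ± 0.13, adjusted p 7.0e-04). The transcript thus remained at 3585 CPM or more in every IP library. Slc17a7, the vesicular glutamate transporter, had 260, 270, 267 and 500 CPM against 585, 591, 504 and 1210 CPM (−1.16 ± 0.28), with replicate 4 the highest in both fractions. Wfs1, an endoplasmic reticulum protein of CA1 cells, fell by 1.63 on the log2 scale (SE 0.15), and Crym, a thyroid hormone-binding protein, by 1.503 (SE 0.23). The summed level of the list was 6216 to 7377 CPM in the IP and 11625 to 12751 CPM in the input. Of 10 CA2 and CA3 markers 3 fell, Pcp4 among them (−0.94), beside the same 7.98%. With the pool as a block 6 did, beside 1599 of all 11204 genes tested. Of 9 dentate granule cell markers 2 rose, Dsp (1.24) and Pdzd2 (0.70), and 1 fell, Tdo2 (−1.83), beside 10.6% and 7.98% of all tested genes. Blocked on the pool, 4 of the 9 were lower, beside the same 1599 of 11204 genes. With replicates 1 to 3 only, 3 were lower, beside 1168 of 11107 genes, and between 0 and 3 were when a single library was left out. Without input replicate 3 the call for Pdzd2 ended (adjusted p 0.052). Prox1, the defining factor of these cells, had −0.44 without passing.

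Of 14 tested astrocyte markers 12 fell (median −0.81), beside 7.98% of all tested genes. The list summed to 6524 to 8508 CPM in the IP libraries against 12535 to 14449 CPM in the inputs. Aqp4 and Gfap are not in the joined table. Gja1, the main astrocyte connexin, had 50.1, 65.5, 63.2 and 55.5 CPM in the IP libraries and 171, 152, 160 and 164 CPM in the inputs (−1.46 ± 0.15). Gjb6, another astrocyte connexin, fell by 1.59 on the log2 scale (SE 0.17). Of 13 microglial markers 9 fell (median −1.19), also beside 7.98% of all tested genes. Their sums were 461 to 570 CPM in the inputs and 140 to 227 CPM in the IP libraries. Ctss, the lysosomal protease cathepsin S, had 4.64, 7.67, 6.37 and 23.4 CPM in the IP libraries against 47.7, 56.8, 53.3 and 71.0 CPM in the inputs (−2.44 ± 0.42), with replicate 4 highest in both. The fractalkine receptor gene Cx3cr1 fell by 1.17 on the log2 scale (SE 0.23) and the growth factor receptor gene Csf1r by 1.89 (SE 0.27). Apoe, a lipid carrier made by astrocytes and microglia, fell by 1.98 (SE 0.31).

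Oligodendrocyte markers were mixed. Of 14 tested, 6 fell (median −0.59), beside 7.98% of all tested genes. With the pool as a block 9 fell and 1 rose, beside 1599 and 1771 of all 11204 genes tested. With replicates 1 to 3 only, 9 fell, beside 1168 of 11107 genes. Without IP replicate 2, 3 fell and 1 rose. Mbp, the myelin basic protein gene, had 1765, 1482, 1722 and 2907 CPM in the IP libraries and 1476, 1550, 1575 and 2900 CPM in the inputs (0.07 ± 0.24, adjusted p 0.88), so that the groups overlapped. Cnp, a myelin enzyme, fell by 1.01 on the log2 scale (SE 0.20), and Sox10, the factor of the lineage, by 0.90 (SE 0.18). Of 6 precursor markers 3 fell, beside 7.98% of all tested genes, Pdgfra by 1.29 (SE 0.23) and Cspg4 by 1.53 (SE 0.35) among them. Endothelial and mural markers were low, with sums of 31.6 to 52.7 CPM in the IP against 73.6 to 88.8 CPM in the input for the first and 36.5 to 73.0 against 67.8 to 96.0 CPM for the second. Of 10 endothelial markers 3 fell, beside 7.98% of all tested genes. Only 0 or 1 of the 10 did when replicate 1, 2 or 3 of either fraction was left out. Of 9 mural markers 2 fell, Vtn (−2.10) and Abcc9 (−1.77), and 1 rose, beside 7.98% lower and 10.6% higher among all tested genes. The 1 that rose was Myh11, smooth muscle myosin, with 22.2, 10.6, 15.9 and 1.82 CPM in the IP libraries and 0.793 to 3.02 CPM in the inputs (2.65 ± 0.64). Within replicate 4 the log2 ratio of IP over input for Myh11 was −0.20. Ttr, the transthyretin made by choroid plexus, was at 1096 to 2776 CPM in the inputs and 329 to 856 CPM in the IP libraries (−1.59 ± 0.33), highest in replicate 3 in both fractions. What share of the other values these transcripts of other cells account for was not tested.

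All 7 tested genes of the mitochondrial genome fell (median −1.90), beside 7.98% of all tested genes. The cytochrome c oxidase gene mt-Co1 had 5672, 4790, 4807 and 2650 CPM in the IP libraries and 31578, 37503, 39336 and 16813 CPM in the inputs, a difference of −2.80 ± 0.27. These transcripts are translated by the ribosomes of the mitochondrion, which hold no Rpl22. Of 48 nuclear genes of oxidative phosphorylation 9 rose and 39 did not pass (median 0.38), beside 10.6% higher among all genes tested. Blocked on the pool, 30 of 48 were higher, beside 1771 of all 11204 genes tested. With replicates 1 to 3 only, 24 of the 48 were, beside 1431 of 11107 genes. Without input replicate 4, 22 were, beside 1242 of 11359 genes. Ndufa6, a complex I subunit, rose by 1.09 ± 0.21, from 23.9 ± 5.92 to 51.1 ± 5.35 CPM, and Cox7b, of complex IV, by 0.74 ± 0.16. Of 64 tested cytosolic ribosomal protein genes 3 rose and 1 fell (median 0.13), beside 10.6% and 7.98% of all tested genes. When blocked on the pool 8 of the 64 rose, beside the same 1771 of 11204 genes. With replicates 1 to 3 only, 5 did, beside the same 1431 of 11107 genes. Without input replicate 1, 2 or 3 only 1 did, and without input replicate 4 5 did. Rps15 rose by 0.81 ± 0.20, and Rps4x fell by 0.77 (SE 0.18).

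**Figure D3:**
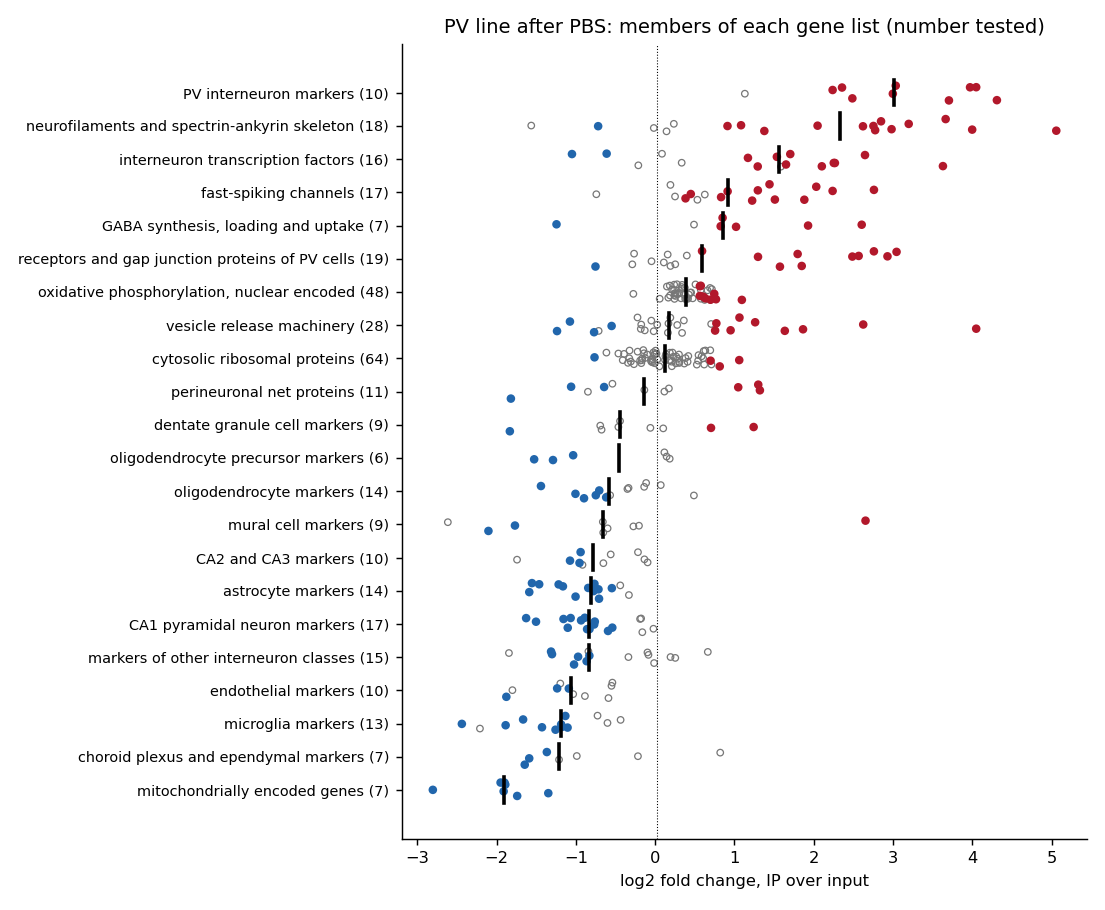
Log2 fold change of IP over input for every tested member of 22 gene lists, ordered by the list's median (black bar). Filled points passed the threshold, red higher and blue lower, and the dotted line is the median of all genes tested. PV markers (median 3.02) and the skeleton genes (2.33) lie at the top and the mitochondrial genome (−1.90) at the bottom.

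To see which of these enrichments differ from those of another tagged cell type, the IP-over-input difference of the PV line was tested against that of the CaMK2a line. Of 11760 genes tested, 1559 (13.3%) had a higher enrichment in the PV line and 1677 (14.3%) a lower one. With PV replicates 1 to 3 only, 2228 of 11602 genes were higher and 2132 lower. In the joint fit 13.4% of genes were higher and 15.4% lower in the PV IP than in its input, and 17.8% and 16.7% in the CaMK2a IP. Lines differ here in pool size, in RNA amount (2.5 ng for PV, 20 ng for CaMK2a) and in the number of replicates, and these cannot be told apart from the cell type. Among the largest positive differences were those of Cox6a2 (7.62 ± 0.58), Pvalb (6.71 ± 0.43), Kcng4 (6.41 ± 0.35), Akr1c18 (5.92 ± 0.59) and Btbd11 (5.85 ± 0.28). These 5 genes were enriched in the PV IP and depleted in the CaMK2a IP. Among the largest negative differences were those of the serotonin receptor gene Htr1b (−3.54 ± 0.46), Hmgn5 (−3.35 ± 0.43), the Wnt agonist gene Rspo3 (−3.09 ± 0.42), Ccdc112 (−2.95 ± 0.42) and the neurotensin gene Nts (−2.89 ± 0.45). Of these, Hmgn5 was raised in the CaMK2a IP (3.02) without passing in the PV IP (−0.33), and Nts fell in the PV IP (−2.26) without passing in the CaMK2a IP (0.63).

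In this test 9 of 10 PV markers and 7 of 7 GABA genes had a higher enrichment in the PV line, Gad2 included (3.14). Over all genes tested 13.3% had a higher one and 14.3% a lower one. Of the 18 skeleton genes 11 had a higher enrichment and 2 a lower one. Sptan1 had 0.44 in the CaMK2a IP without passing (adjusted p 0.24), and its difference between lines was 4.57 ± 0.38 (adjusted p 2.1e-07). Sptbn1 and Ppp1r9a passed as higher in the CaMK2a IP too, by 0.59 and 0.99 (adjusted p 0.015 and 0.0074). Their differences between lines were 3.35 and 3.86 (adjusted p 3.3e-08 and 6.5e-07). Limch1 (0.07) and Actn2 (−0.36) did not pass in the CaMK2a IP. Mpdz and Mmp2 were enriched in both lines, by 2.92 and 2.20 in the CaMK2a IP, with differences between lines of 1.52 and 2.72 (adjusted p 1.2e-04 and 0.0023). Mmp9 was enriched in the CaMK2a IP too (2.20), and its difference of 2.18 did not pass (adjusted p 0.077). Of the CA1 markers 14 of 17 had a lower enrichment in the PV line. Among glia, 14 of 14 astrocyte, 13 of 14 oligodendrocyte and 10 of 13 microglial markers had a higher IP-over-input ratio in the PV line than in the CaMK2a line, where the medians of the lists were −2.72, −2.47 and −3.31. Mbp, near 0 in the PV line, had −2.21 in the CaMK2a line, a difference of 2.22 (adjusted p 2.3e-04). For mt-Co1 the difference between lines was 0.87 and did not pass (adjusted p 0.084).

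**Figure D4:**
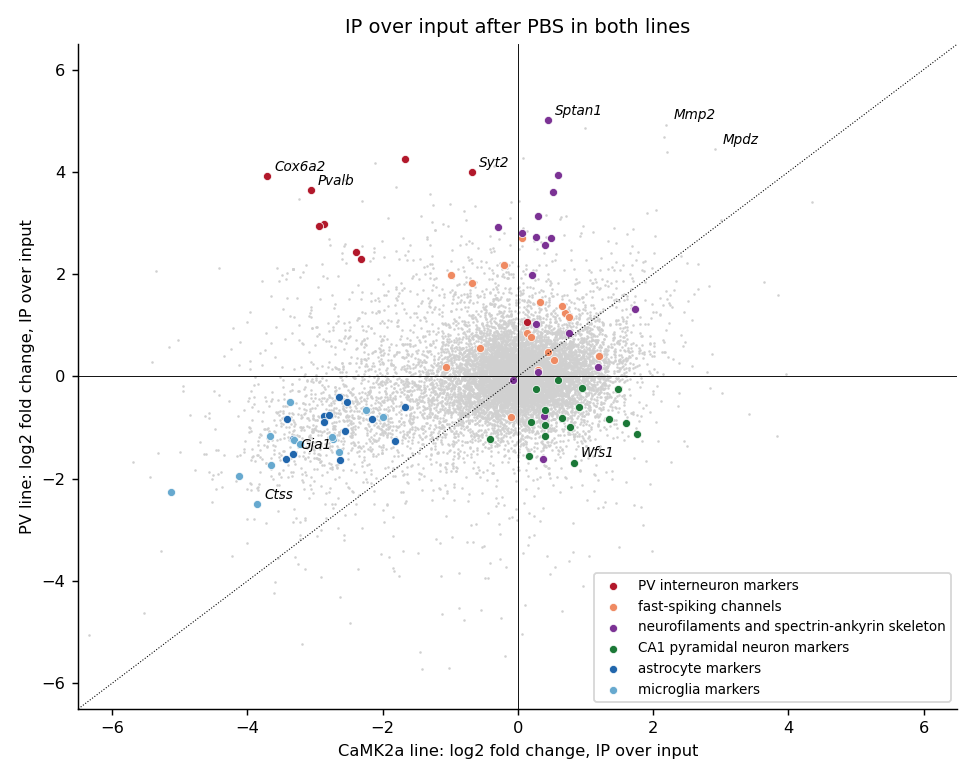
IP over input (log2 fold change, from 1 fit to both lines) in the PV line against the CaMK2a line, all tested genes in grey and 6 lists in colour, with equality dotted. PV markers lie high on the PV axis and mostly low on the other, CA1 markers the reverse, and astrocyte and microglial markers are lower on the CaMK2a axis than on the PV axis.

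The same contrast was available in 8 libraries that share none with the PBS groups, from the PV line 6 h after kainic acid, which acts on glutamate receptors and causes seizures. There 767 of 11205 genes (6.85%) were higher in the IP and 460 (4.11%) lower, and all 4 IP values lay above the inputs for 9.66% of genes and below them for 8.93%. A block on the pool gave 1313 higher and 1082 lower, and upper-quartile factors gave 651 and 627. With replicates 1 to 3 only, 1064 of 11084 genes were higher and 642 lower. Without kainic acid input replicate 1 the counts were 511 and 243, without input replicate 2 579 and 299, and without input replicate 3 486 and 234. Of the 1183 genes higher after PBS 660 (55.8%) were also called higher after kainic acid, which is 86.1% of those 767. Of the 894 lower genes 314 (35.1%) were called lower again, 68.3% of the 460. No gene was called in opposite directions. Of the PBS-higher genes tested after kainic acid 1150 of 1170 had the same sign, and 869 of 889 of the lower ones. The share with the same sign over all genes tested in both was not computed.

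PV markers again rose for 9 of 10, beside 6.85% of all tested genes, with Pvalb at 4.26, Syt2 at 4.05 and Akr1c18 at 3.53. Gad2 passed there at 0.71 (adjusted p 0.019), as did Scn8a at 0.83 (adjusted p 0.045). Of the fast-spiking channels 14 of 17 rose. Sptan1 had 3.77, Ppp1r9a 3.82 and Mmp2 4.99, and all 3 passed. Acan (−0.21, adjusted p 0.77) and Myh11 (0.09, adjusted p 0.96) did not pass after kainic acid, nor did Dlx6 (1.54, adjusted p 0.31). Sst (−0.34, adjusted p 0.23) and Camk2a (−0.48, adjusted p 0.15) did not pass either. Of the CA1 markers 3 of 17 were lower, beside 4.11% of all tested genes. Whether the enrichment differs between PBS and kainic acid was not tested.

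**Figure D5:**
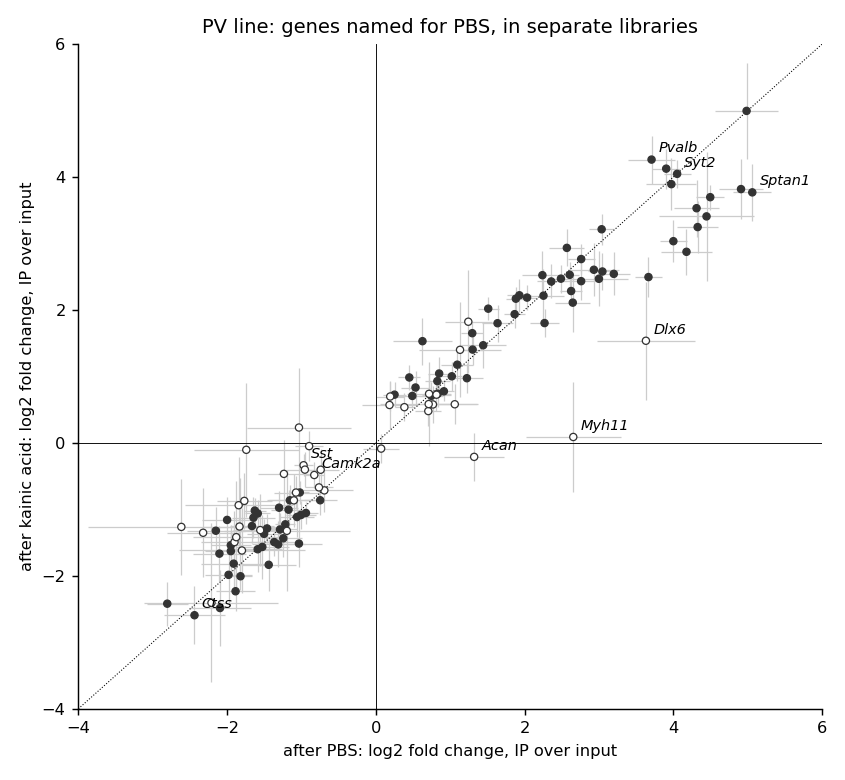
Log2 fold change of IP over input after PBS (x axis) and after kainic acid (y axis) for the named genes tested in both, with SE bars. Filled points passed the threshold after kainic acid, the dotted line is equality, and Acan and Myh11 lie high on the x axis and near 0 on the y axis.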

How the data were processed

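Members and gene lists were chosen with earlier results of these data known. RNA was measured in 28 libraries, and this comparison used 8, grouped by their labels. Per the labels' protocols, 2.5 ng of RNA was SPIA-amplified, cut to about 400 bp and read as 75 bp single ends to 20 to 40 M reads. The totals implied by the deposited RPKM values were 42.4 to 47.4 M for the IP libraries, above that range. For the inputs they were 30.25 to 37.3 M. Reads were aligned to mm10 (GRCm38) with BWA and compared with edgeR, per the submitters' processing notes, with versions not given in the sources used here. The authors deposited whole-number counts per gene, used here for every test, and RPKM values, used for levels per length. Tables of IP and of input libraries were joined by gene (13428 in both, with 467 and 558 in one only). Of 106808 counts that 2 tables share, 0 differed.

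Tests were edgeR 4.0.16 quasi-likelihood fits (R 4.3.3) with TMM factors, filterByExpr (minimum count 10), prior count 0.125 and Benjamini-Hochberg adjusted p under 0.05. Each SE is the absolute log2 fold change divided by the root of the F statistic. The fits were also run on counts simulated without differences between pools and without a replicate that stands apart. That run cannot show how the fits perform with these features of the data. DESeq2 1.42.0 was an alternative, besides other scaling factors, filters, the pool as a block, replicates 1 to 3 only, a fit to all 4 PV groups and each library left out. The input is a portion of the lysate that gave the IP, and IP and input were paired by the replicate number alone. Deviations of same-numbered libraries from their group means correlated at 0.157, 0.168, 0.205 and 0.675 for replicates 1 to 4 (8124 genes), while IP and input libraries of different numbers among replicates 1 to 3 correlated at 0.112 to 0.196. These correlations do not set the pairs of replicates 1 to 3 apart. Pools are separate samples of mice, and p-values measure the spread between them. Named genes were the 12 largest changes each way among genes called, with a mean log2 CPM of at least 3 and no overlap between groups, fixed genes, the tested members of the PV, GABA and channel lists and up to 4 members of every other list, and for the difference between lines the 6 largest each way. Other members with values in the text, such as Dlx5 or Vamp2, were named after their values were seen. Some genes that the rule names are not reported here, though the counts include them. Overlap on opposite strands was read from GENCODE M21, where 122 of 126 named genes were found and 30 shared exonic bases with such a gene. Python 3.11.15 with pandas 2.3.3 and matplotlib 3.10.9 handled tables and figures.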

Additional observations from a re-analysis of the deposited data

Results flagged for a closer look

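Among the 4 IP or the 4 input libraries, 1 value lay far from the other 3 for 37 of 252 pairs of a named gene and a fraction, where chance gives about 1 in 20. In 34 of the 37 the value apart was that of replicate 4, and 22 of these are in the input. The share of mitochondrially encoded counts in IP replicate 4 (0.795%) stood apart in the same way. In IP replicate 4 the high values were Mmp9 (49.6 CPM), Cox6a2 (50.01 CPM), Ctss (23.4 CPM), Apoe (148 CPM), Slc17a7 (499.8 CPM), Kcnab2 (370.1 CPM), Olig1 (112 CPM) and Acta2 (1.74 CPM). The low ones there were mt-Cytb (1540.2 CPM), mt-Nd2 (216 CPM), Gad2 (468 CPM) and Camk2a (3585 CPM).

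In input replicate 4 neuronal and GABA genes stood apart upwards for Slc17a7 (1210.5 CPM), Nrgn (447 CPM), Slc6a11 (253 CPM), Abat (289.8 CPM), Rab3b (106 CPM), Sp9 (7.07 CPM) and Cox6a2 (3.13 CPM). Glial and ribosomal protein genes did so for Mbp (2900.1 CPM), Mag (188 CPM), Cnp (726 CPM), Olig1 (191 CPM), Gpr17 (189 CPM), Apoe (584 CPM), Atp1b2 (833 CPM), C1qa (15.7 CPM), Rpl37 (39.5 CPM) and Rps15 (134 CPM). Gad2 (416 CPM) and Dsp (27.2 CPM) were low there. The other 3 values apart were Ndnf in IP replicate 3 (28.3 CPM), Abcc9 in input replicate 1 (20.2 CPM) and Ttr in input replicate 3 (2776 CPM).

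The enrichment differed between the PV and CaMK2a lines by the test of the difference itself for 1559 genes higher and 1677 lower in the PV line. The values were 7.62 for Cox6a2, 6.71 for Pvalb, 6.41 for Kcng4, 5.92 for Akr1c18 and 5.85 for Btbd11. Among genes fixed by name they were 4.67 for Syt2, 5.13 for Gad1, 3.14 for Gad2, 5.41 for Slc32a1, 1.79 for Sst, 2.22 for Mbp, 1.497 for Cx3cr1 and −1.08 for Camk2a. Differences the other way were −3.54 for Htr1b, −3.35 for Hmgn5, −3.09 for Rspo3, −2.95 for Ccdc112 and −2.89 for Nts.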

How the results depend on the processing

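Of 126 named genes tested 106 were called, and 89 of these kept their call and their sign in all 16 alternatives, among them Pvalb, Syt2, Akr1c18, Gad1 and Sptan1. No called gene changed sign in any of them. With the pool number as a replicate block the genes lower after PBS rose from 894 to 1599, and after kainic acid the genes higher rose to 1313 and those lower to 1082. It added 6 calls among named genes, Gad2, Scn8a, Kcnc4, Ndufa3, Cdh5 and Acta2, and ended none. DESeq2 gave 719 genes lower after kainic acid. Upper-quartile factors moved the share of higher genes among those called from 57.0% to 48.0% after PBS and from 62.5% to 50.9% after kainic acid. When single libraries were left out, the genes higher after PBS ranged from 839 to 1259 and those lower from 581 to 1025, and after kainic acid from 486 to 843 and from 234 to 520. The differences between lines ranged from 1172 to 1927 higher and from 1277 to 2011 lower. Without replicate 4 in both PV fractions they lay outside these ranges, at 2228 higher and 2132 lower. Mbp, not called, changed sign with upper-quartile factors (−0.00479) and, over libraries left out, had −0.178 to 0.36, and C1ql1, not called, had −0.028 to 0.44. Of 704 alternative counts over gene lists 45 moved by over 1.5 times. The cause of these shifts was not tested. Genes at a few CPM, such as Nog or Cldn5, rest on few reads, which limits the precision of their values.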
